A study of Arabidopsis thaliana with 2 samples.

Results

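Nuclear genes of the photosystems, their antenna, carbon fixation and chlorophyll synthesis were examined in dissected leaf margins of *Arabidopsis thaliana*. A gene was included where its symbol or a synonym in the reference gene table contained photosystem, light harvesting, light-harvesting, chlorophyll or rubisco, and genes of the plastid genome were dropped. *LHCB4.1*, *LHCB4.3*, *RCA* and *PORB* were to be included by name, and the words found these 4 as well. Of 13355 genes with a probe set annotated to that gene alone, 13216 were nuclear and 9 met the rule. These were 3 antenna genes, 2 genes of the photosystem II reaction centre, 1 gene of carbon fixation and 1 of chlorophyll synthesis. The other 2, *HCF101* and *PIFI*, were matched through the words chlorophyll fluorescence in the name of a mutant phenotype, and they are given apart. Many other nuclear photosynthesis genes are not named in the annotation used here, so the 9 genes are a part of the apparatus and not a survey of it.

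The tissue was cut from the edge of older leaves of *35S:miR319a/35S:amiR-NGA* plants. Both transgenes are driven by the constitutive 35S promoter, one expressing a microRNA that targets *CIN-TCP* genes and the other an artificial microRNA against the *NGA* genes. The labels give the Ler ecotype and growth in soil at 23°C with 16 h light and 8 h dark, while the genotype is given by the study's methods alone. For leaf analyses the methods name shorter days and a lower temperature, and which condition the array plants had is not settled, a limit for genes that light regulates. There were 2 biological replicates of this 1 group, each on 1 Affymetrix ATH1 array. With no wild-type margin and no other tissue, no effect of the genotype or of light could be tested, and the differences described are between replicates. All 6 measured leaf genes used to check the tissue label (*SPCH*, *FMA*, *STOMAGEN*, *YAB3*, *JAG* and *TRY*) were above background in both arrays. Of all nuclear genes 60.3% were. Of 12 genes listed for tissues other than leaf, 4 were (*AGL61*, *AGL80*, *EXPA18* and *PLIM2b*). The bound, given below, was set from 6 of these 12, *EXPA18* among them, so most of those 6 could not exceed it. With the higher bound of *B. subtilis* control probe sets, *FMA* (34.1) and *TRY* (68.8) were below background in replicate 2 (bound 69.4). These counts are thus a weak check of the label.

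Photosystem II splits water with light energy that pigment proteins of the antenna collect, and photosystem I passes the electrons on to reduce ferredoxin. Reaction centre cores are built from plastid-encoded and nuclear-encoded subunits together, whereas the antenna proteins, the small subunit of Rubisco and the enzymes of chlorophyll synthesis are encoded in the nucleus and imported into the plastid. Transcripts of these nuclear genes are typical of green mesophyll cells and are low in dividing cells whose plastids are not yet developed. In RNA from a strip of tissue, fewer green cells and less RNA of these genes per cell cannot be told apart.

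All 9 genes were above background in both arrays. The bound was the 95th percentile of 6 pollen, anther and root genes, 7.21 in replicate 1 and 18.3 in replicate 2, and 60.3% of all nuclear genes exceeded it in both. The signal is the MAS5 intensity on a linear scale, with a median over all probe sets of 50 in each array. The median log2 signal of the 9 genes was 10.2, against 5.12 for all nuclear genes. Of the 9 genes, 4 had a signal over 1000 in both arrays (*LHCB4.1*, *RCA*, *PSBW* and *PSBY*), as did 0.976% of all nuclear genes. Probe sets differ in brightness, so signals of different genes are not an order of transcript number. *LHCB4.3* was the member closest to the bound, at 9.72 times the bound in replicate 1 and 2.90 times in replicate 2. With the higher bound of the *B. subtilis* control probe sets, 69.4 in replicate 2, it was below background in that array and the other 8 genes stayed above.

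**Figure D1:**
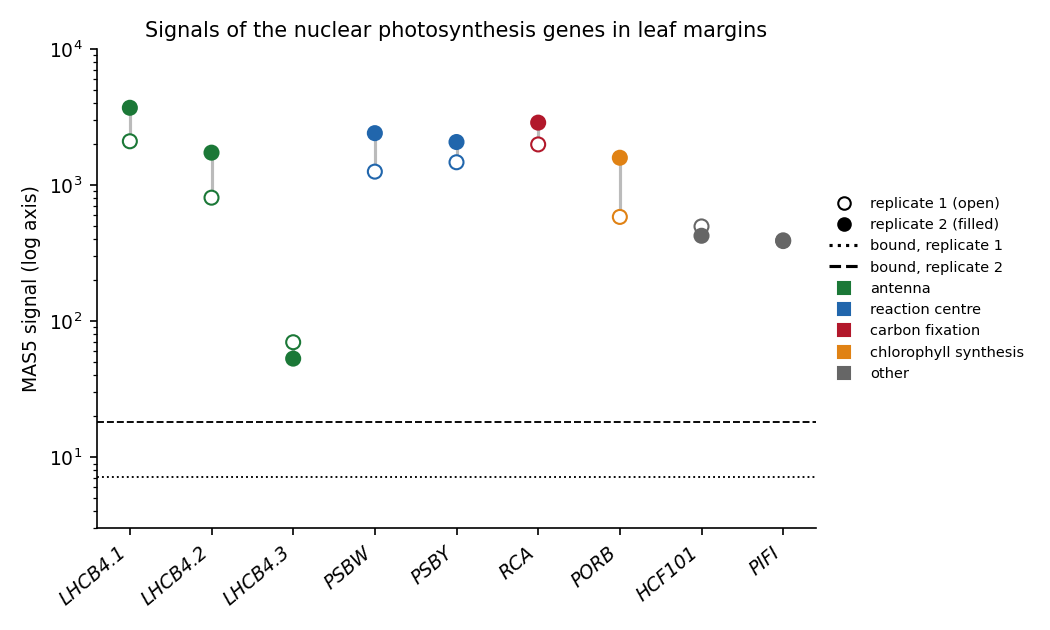
MAS5 signal (log axis) of the 9 genes in replicate 1 (open circles) and replicate 2 (filled circles), coloured by class, with the background bound of each array as a line. All points lie above both bounds, and 6 of the 9 genes have the higher signal in replicate 2.

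The antenna was represented by the *LHCB4* family, which encodes isoforms of a monomeric chlorophyll-binding protein between the photosystem II core and the outer antenna. *LHCB4.1* (AT5G01530) had a signal of 2105 in replicate 1 and of 3713 in replicate 2, with a mean of 2909 ± 1136 (SD, n = 2). *LHCB4.2* (AT3G08940) had signals of 810.4 and 1736, with a mean of 1273 ± 655 (SD, n = 2). *LHCB4.3* (AT2G40100) had signals of 70.1 and 53.1, with a mean of 61.6 ± 12.0 (SD, n = 2). The first and second isoform genes were thus higher in replicate 2, by 1.76-fold and 2.14-fold, while the third was higher in replicate 1, by 1.32-fold. The log2 ratio of replicate 2 over replicate 1 was 0.82 for *LHCB4.1*, 1.10 for *LHCB4.2* and -0.40 for *LHCB4.3*. The 3 isoform genes of one protein thus did not move together between these arrays as deposited. *LHCB4.3* was far dimmer than the others, and the array ratio depended on signal, as given below.

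Both reaction centre genes encode small membrane proteins of photosystem II. *PSBW* (AT2G30570), a subunit that helps to hold the photosystem II supercomplex together, had signals of 1260 in replicate 1 and 2416 in replicate 2 (mean 1838 ± 818, SD, n = 2). *PSBY* (AT1G67740), whose precursor is processed into separate small subunits, had signals of 1476 and 2079 (mean 1778 ± 427, SD, n = 2). Both were higher in replicate 2, by 1.92-fold for *PSBW* and 1.41-fold for *PSBY*.

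Carbon fixation was represented by *RCA* (AT2G39730), the Rubisco activase, which frees the active site of Rubisco from inhibitory sugar phosphates. Its signal was 1996 in replicate 1 and 2887 in replicate 2, a 1.45-fold difference, with a mean of 2442 ± 630 (SD, n = 2).

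Chlorophyll synthesis was represented by *PORB* (AT4G27440), which encodes a light-dependent reductase that turns protochlorophyllide into chlorophyllide. It had signals of 585.1 in replicate 1 and 1593 in replicate 2, and its mean was 1089 ± 713 (SD, n = 2). At 2.72-fold this was the widest gap between the arrays among the 9 genes as deposited and after quantile normalization. With the hybridization controls as the scale the gap of *PORB* was 0.67 in log2 ratio, and *LHCB4.3* had the widest at -1.18.

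The genes matched through chlorophyll fluorescence were closer to equal in the deposited signals. *HCF101* (AT3G24430), a scaffold protein for iron-sulfur clusters that photosystem I needs for its assembly, had signals of 498.1 and 425.3 (mean 462 ± 51.4, SD, n = 2). *PIFI* (AT3G15840), required for chlororespiration through the plastid NDH complex, had signals of 393.6 and 388.7 (mean 391 ± 3.46, SD, n = 2). Replicate 1 was higher by 1.17-fold for *HCF101* and by 1.01-fold for *PIFI*, the smallest gaps among the 9 genes as deposited. Scaled to control transcripts added to the hybridization mix, described further on, both were lower in replicate 2, with log2 ratios of -1.01 for *HCF101* and -0.80 for *PIFI*.

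Across the 9 genes, 6 were higher in replicate 2 and 3 lower, where 64.0% of all nuclear genes were higher. The log2 ratio of replicate 2 over replicate 1 had a median of 0.53 (1.45-fold) over the 9 genes, against 0.27 for all nuclear genes and 0.14 for the 7968 nuclear genes above the bound in both arrays. *PORB* and *LHCB4.2*, 2 of 9 genes, were over 2-fold higher in replicate 2 as deposited, against 20.3% of all nuclear genes. That share includes genes below the bound, and all 9 members were above it. Of the 7968 nuclear genes above the bound in both arrays, 625 were over 2-fold higher. Of the 1322 with a mean signal above 278.0, which include 8 of the 9 members, 64 were. Both are lower shares than among all nuclear genes. None of the 9 was over 2-fold lower, against 6.92% of all nuclear genes, 234 of these 7968 and 18 of these 1322. With the hybridization controls as the scale neither *PORB* nor *LHCB4.2* passed 2-fold, while *LHCB4.3* and *HCF101* were over 2-fold lower. The share of all nuclear genes past 2-fold on that scale was not computed. Their median log2 ratio there was -0.51, so lower values were common among them.

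The array difference depended on signal over all nuclear genes. It was wide among dim genes, with median log2 ratios of 0.96, 0.55, 0.79 and 0.67 in the lowest 4 of 10 equal classes of mean signal, up to a mean signal of 17.5, and no member lay there. It was near 0 in the middle of the range and widened again among bright genes. Of the 1322 nuclear genes with a mean signal above 278.0, 71.7% were higher in replicate 2, with a median log2 ratio of 0.29, and 8 of the 9 genes are among these. Of the 129 nuclear genes with a signal over 1000 in both arrays, 96.1% were higher in replicate 2, with a median log2 ratio of 0.71. Among these 129, 23 had a larger ratio than *PSBW*, 46 than *LHCB4.1*, 93 than *RCA* and 98 than *PSBY*, so the 4 bright members were spread through the range of equally bright genes. *LHCB4.3* alone lay lower, among the nuclear genes with a mean signal of 36.1 to 66.6, where the median log2 ratio was 0.060.

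**Figure D2:**
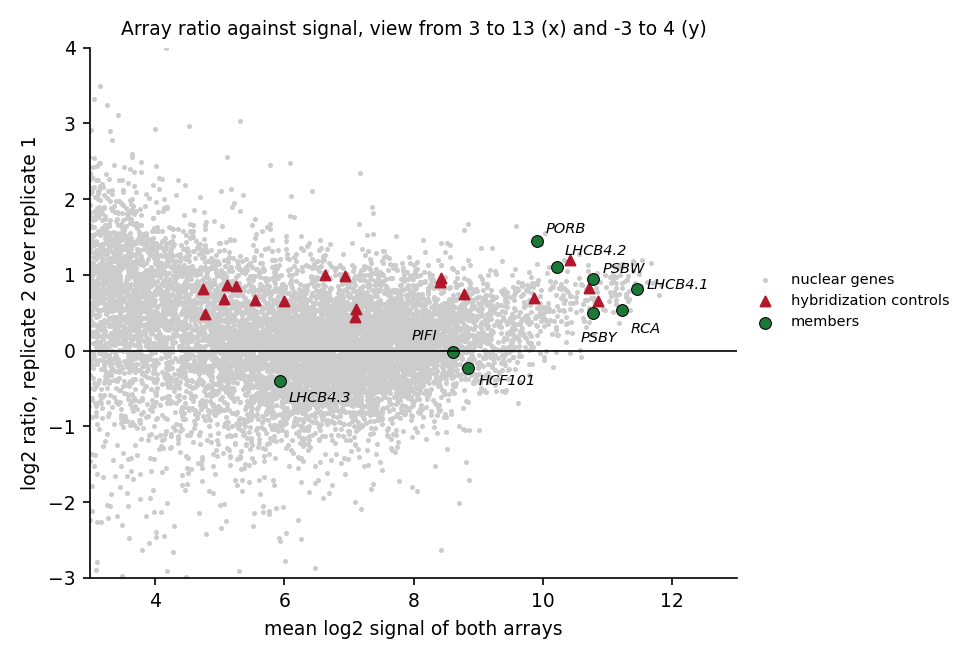
Log2 ratio of replicate 2 over replicate 1 against the mean log2 signal of both arrays for nuclear genes (grey), the 9 members (green, named) and 18 hybridization control probe sets (red triangles). Genes outside the axis limits are not drawn. The grey cloud bends upward at high signal, the members other than *LHCB4.3*, *HCF101* and *PIFI* lie above 0, and all 18 controls lie above 0.

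The array also measures bacterial and phage control transcripts that are added to the hybridization mix. All 18 probe sets of these controls had the higher signal in replicate 2, with a median of 1.72-fold and a range of 1.37-fold to 2.28-fold. Each array was therefore also scaled to the geometric mean of these controls, which was 121.7 in replicate 1 and 208.6 in replicate 2. With this scaling the log2 ratio of all nuclear genes had a median of -0.51, and 27.1% of them were higher in replicate 2. Of the 9 genes, 4 were higher in replicate 2 on that scale (*LHCB4.1*, *LHCB4.2*, *PSBW* and *PORB*). After quantile normalization, which gives both arrays the same distribution, the median of all nuclear genes was 0.066 with 53.6% higher in replicate 2, and 3 of the 9 genes were higher there.

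The members thus differed in how their array ratio depended on scale. *PORB*, *LHCB4.2* and *PSBW* were higher in replicate 2 under all 3 scalings. For *PORB* the log2 ratio was 1.45 as deposited, 1.08 after quantile normalization and 0.67 with the controls. For *LHCB4.2* it was 1.10, 0.65 and 0.32, and for *PSBW* 0.94, 0.33 and 0.16, in the same order. *LHCB4.3*, *HCF101* and *PIFI* were lower in replicate 2 under all 3, with *LHCB4.3* at -0.40, -0.38 and -1.18, *HCF101* at -0.23, -0.42 and -1.01, and *PIFI* at -0.018, -0.17 and -0.80. *LHCB4.1*, *RCA* and *PSBY* turned direction, since *LHCB4.1* was at 0.82, -0.072 and 0.041, *RCA* at 0.53, -0.28 and -0.25, and *PSBY* at 0.49, -0.14 and -0.28. With 2 arrays a direction common to the scalings is a description of this pair of samples and no test.

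**Figure D3:**
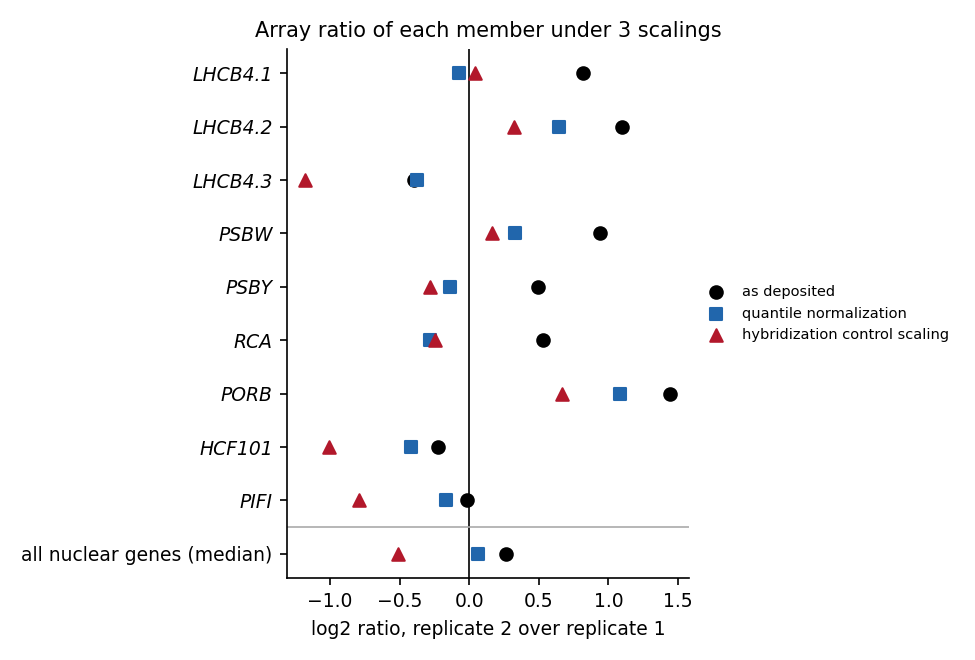
Log2 ratio of replicate 2 over replicate 1 for each member as deposited (black circles), after quantile normalization (blue squares) and after scaling to the hybridization controls (red triangles), with the median of all nuclear genes in the bottom row. *PORB* stays to the right of 0 at 1.45, 1.08 and 0.67, while *LHCB4.1*, *RCA* and *PSBY* have symbols on both sides of 0.

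Signs of RNA integrity or labelling, and the plastid-encoded genes, differed between the arrays as well. The actin control had a 3′ over 5′ signal ratio of 1.70 in replicate 1 and 3.93 in replicate 2, the ubiquitin control one of 2.01 and 2.89, and the GAPDH control one of 1.496 and 1.499. The 33 plastid-encoded photosynthesis genes, which are not members, were all higher in replicate 2, and the 24 of them above the bound in both arrays had a median log2 ratio of 3.62. In replicate 1 these 24 had dim signals, 8.33 to 53.1 with a median of 16.3, where the bound was 7.21. Their median signal in replicate 2 was 232. The part of labelling, RNA integrity, scale and the share of green cells in these ratios was not tested.

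Other nuclear genes of the pathway were taken from lists of 124 names, synonyms included, of which 21 genes were measured and 19 of these were not members. Of the 19, 18 were above the bound in both arrays, as were 60.3% of all nuclear genes. The median of their log2 array ratio was 0.23, against 0.27 for all nuclear genes. As deposited, 14 of the 19 were higher in replicate 2 and 5 lower, where 64.0% of all nuclear genes were higher. After quantile normalization 12 of the 19 were higher in replicate 2, and with the hybridization controls as the scale 2 were. Of all nuclear genes, 53.6% and 27.1% were higher on these scales. The steps before *PORB* in chlorophyll synthesis were measured by 8 genes, of which 7 were above the bound. *GSA1*, the aminomutase that makes the common precursor of heme and chlorophyll, had signals of 343.6 in replicate 1 and 518.9 in replicate 2. *HEMB1*, the next enzyme, had 633.0 and 506.5. *CHLM*, the magnesium protoporphyrin methyltransferase of the chlorophyll branch, had 754.4 and 979.2. *CHLI2*, a subunit of the chelatase that inserts magnesium, had 125.2 and 144.4.

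*HEME1* and *HEME2*, both for uroporphyrinogen decarboxylase, went different ways, with 303.5 in replicate 1 and 342.9 in replicate 2 for *HEME1* and 464.2 and 295.2 for *HEME2*. Among the genes for glutamyl-tRNA reductase, which commits glutamate to this pathway, *HEMA2* was above the bound at 21.5 and 26.3, and *HEMA3* was below it in both arrays at 5.71 and 0.870. *HEMA1*, the form used mainly in green tissue, was not analysed here. Of the 8 genes before *PORB*, none was over 2-fold higher in replicate 2, against 20.3% of all nuclear genes. Among the 7968 nuclear genes above the bound, 625 were. *HEMA3*, below the bound, was the 1 gene of the 8 over 2-fold lower. The median log2 ratio of all 8 was 0.19, and the highest was 0.59 for *GSA1*, against 1.45 for *PORB*. With the hybridization controls as the scale all 8 were lower in replicate 2, and *PORB* was higher, as were 27.1% of all nuclear genes.

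The Calvin cycle enzymes measured beside *RCA* were *SBPASE*, with signals of 1216 in replicate 1 and 1577 in replicate 2, and *PRK*, whose enzyme regenerates the substrate of Rubisco, with 1051 and 1311. Their ratios of 1.30-fold and 1.25-fold were below that of *RCA* at 1.45-fold, and all 3 were lower in replicate 2 after quantile normalization and with the hybridization controls. *ATPC1*, the main gamma subunit of the plastid ATP synthase, had 1063 and 1758, a log2 ratio of 0.73 that was 0.20 after quantile normalization and -0.051 with the controls. A second gamma subunit gene, *ATPC2*, had 47.8 and 95.7 and was higher in replicate 2 under all 3 scalings. The NDH subunit genes *NdhL* (109.2 and 128.1) and *NdhN* (218.5 and 235.1) and *PGRL1B* of cyclic electron flow (105.7 and 91.6) were at most 1.17-fold apart between the arrays, and *PIFI*, which acts with the NDH complex, was 1.01-fold apart. These gaps are of the deposited signals, and with the hybridization controls *NdhL* was at -0.55, *NdhN* at -0.67 and *PGRL1B* at -0.98 in log2 ratio. As deposited, all nuclear genes in the signal classes of *PGRL1B*, *NdhL* and *NdhN* had median log2 ratios of -0.024, 0.0049 and 0.050. In the brightest class, which held *PIFI*, the median was 0.29. *HYH*, a homolog of the light-signalling factor HY5, had 179.3 and 185.1 and was the 1 regulator measured.

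A further 14 thylakoid genes were collected by symbol and synonym after values had been seen, 3 of them also in the lists above. All 14 were above the bound in both arrays, as were 60.3% of all nuclear genes. As deposited, 7 were higher in replicate 2 and 7 lower, where 64.0% of all nuclear genes were higher. The median log2 ratio of the 14 was 0.11, against 0.27 for all nuclear genes. The counts were again 7 and 7 after quantile normalization, and 3 and 11 with the hybridization controls. Of all nuclear genes, 53.6% and 27.1% were higher on these scales. The photosystem I subunit genes *PSAE-1* (1578 in replicate 1 and 3008 in replicate 2) and *PSAN* (1212 and 1434) and the photosystem II repair gene *PSB27* (913.2 and 1682) were higher in replicate 2 as deposited, and *PSAE-1* and *PSB27* also under the other scalings, whereas *PSAN* was lower under both. Genes for photosystem II assembly were closer to equal or lower, with *LPA19* at 103.8 and 101.7, *PAM68* at 194.1 and 186.3, *LPA1* at 195.0 and 124.0, and *LPA2*, the exception, at 268.5 and 353.8. These assembly genes were dimmer than *PSAE-1*, *PSAN* and *PSB27*, so this contrast cannot be told apart from the dependence of the array ratio on signal. Among genes of the CURT1 family, which bends thylakoid membranes, CURT1A (AT4G01150) had 1864 and 3881, CURT1C (AT1G52220) 653.5 and 610.3, and CURT1D (AT4G38100) 343.2 and 325.9. CURT1A was higher in replicate 2 under all 3 scalings and CURT1C and CURT1D were lower under all 3. This family was thus split between the arrays as the *LHCB4* genes were as deposited. In both families the genes lower in replicate 2 as deposited were the dimmer ones, and the array ratio depended on signal.

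**Figure D4:**
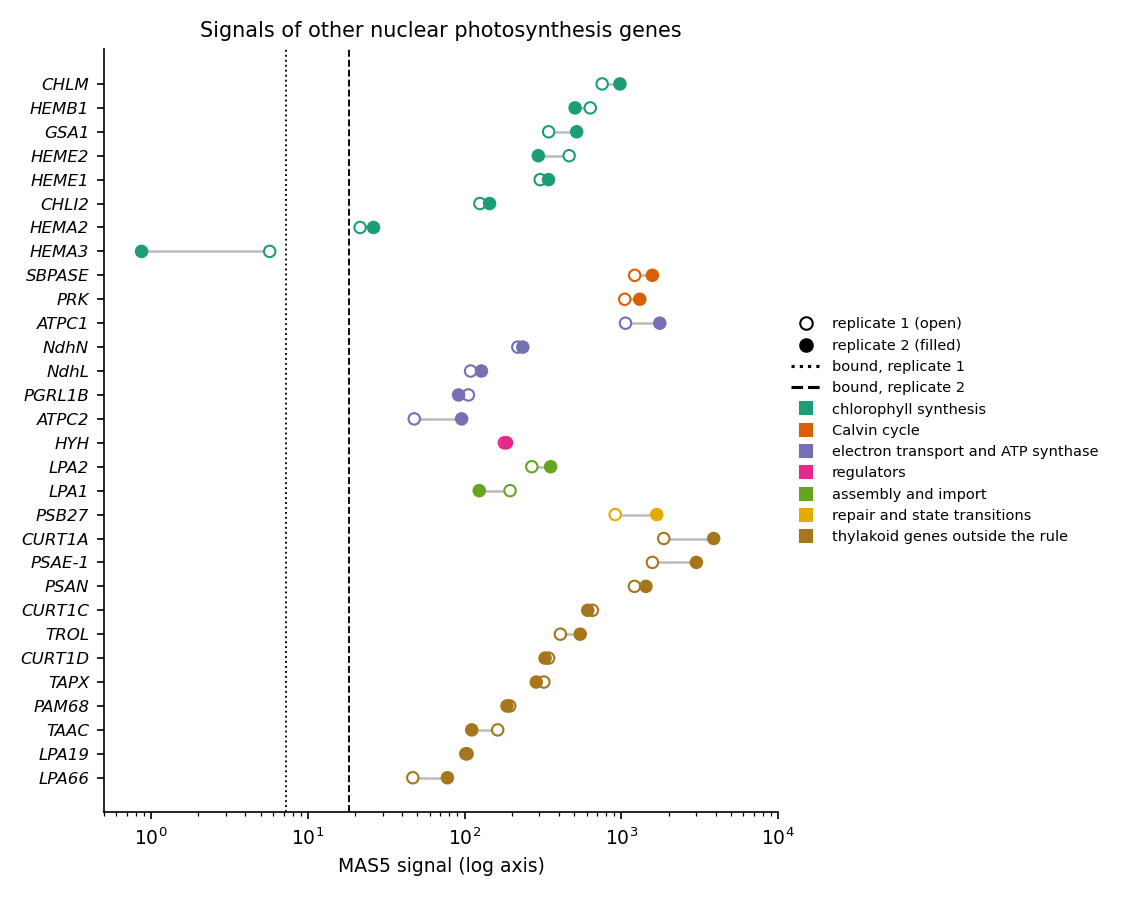
MAS5 signal (log axis) of 30 other nuclear photosynthesis genes in replicate 1 (open circles) and replicate 2 (filled circles), coloured by list, with the background bound of each array as a vertical line. *HEMA3* lies below both bounds, and the other 29 genes lie above the bound of each array.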

How the data were processed

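RNA of dissected leaf margins was hybridized to Affymetrix ATH1 arrays, 1 for each of 2 biological replicates. The authors obtained and normalized the deposited signals, 1 intensity for each of 22810 probe sets, with MAS5. R 2.7.2 is named in the submitters' notes on processing. Detection calls and raw probe values were not used here.

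Of the probe sets, 13513 had 1 gene in the platform annotation, 503 had several and 8794 were unnamed there. RefSeq (assembly TAIR10.1) matched 13436 of these 13513 and supplied symbols, synonyms and nuclear or plastid location. The table of names has no longer descriptions, so the words of the rule were sought in symbols and synonyms. Where a gene had several probe sets, the one of highest mean signal was used. Each member had 1. The background bound, the log2 ratio without pseudocount, quantile normalization and scaling to 18 hybridization controls were computed with Python 3.11.15, numpy 2.4.6 and pandas 2.3.3. The ratio and quantile steps were tested on simulated data. Figures were drawn with matplotlib 3.10.9.

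No test was made, since there is 1 group. All 9 members are named, each with its value in both arrays. Members and lists were chosen with earlier results of these data known, and 124 names of other pathway genes were looked up. Settings tried were other bounds, probe sets, normalizations, a pseudocount of 16, a floor at the bound and each array alone. With 2 arrays, each SD rests on as many values.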

Additional observations from a re-analysis of the deposited data

How the results depend on the processing

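All 9 genes were above background under each bound tried except that of the *B. subtilis* control probe sets (27.9 in replicate 1 and 69.4 in replicate 2), where *LHCB4.3* dropped out in replicate 2 and 8 remained. Taking the lowest probe set, plain probe sets or the word match alone changed nothing, since each member has 1 probe set and was found by a word. After quantile normalization the log2 ratio of replicate 2 over replicate 1 had a median of -0.14 for the 9 genes with 3 of them higher in replicate 2, -0.072 for the antenna, 0.094 for the reaction centre and -0.28 for carbon fixation. Scaling to the hybridization controls, chosen after seeing the data, gave -0.25 for the 9 genes and for carbon fixation, 0.041 for the antenna and -0.060 for the reaction centre. The cause was not tested. The other settings kept their direction and stayed within the spread between the arrays, or within 1.5 times for counts. Without *HCF101* and *PIFI* the median was 0.82. The bound rests on 6 reference genes, of which *EXPA18* (8.42 and 20.4) was above it. Of a longer list of 12 genes from other tissues, with these 6 among them, 4 were above it.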

Other observations

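A pair of further genes named for enzymes of tetrapyrrole synthesis stood outside the lists, and they were chosen after their values had been seen. *hemf2* (AT4G03205) had a signal of 149.2 in replicate 1 and of 28.2 in replicate 2, 5.29-fold higher in replicate 1, which is the opposite direction to *PORB*. *hemb2* (AT1G44318) was slightly above the bound in both arrays, at 8.02 and 19.4. It was 2.42-fold higher in replicate 2, the same direction as *PORB*. Of nuclear genes with a mean signal of 9.74 to 17.5, where *hemb2* lay, 80.3% were higher in replicate 2. For *hemf2*, in the class of 66.7 to 104.9, that share was 48.7%. With the *B. subtilis* bound (27.9 in replicate 1 and 69.4 in replicate 2), *hemb2* was below background in both arrays and *hemf2* in replicate 2.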
